A study of Mus musculus with 3 samples.

Results

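Resting immature neutrophils are described here: cells that hold transcripts of the secondary (specific) granules and few or none of the dividing cell. Members were thus chosen by measured values of 12 genes, and those values are description and no finding. A cell barcode was counted when at least 2% of its unique molecular identifiers (UMIs, each read as 1 captured RNA molecule) came from S100a8 and S100a9, at least 0.5% from Ngp, Camp and Ltf together, under 0.3% from Elane, Mpo and Prtn3, and when it held at most 2 UMIs of Mki67, Top2a, Birc5 and Ube2c. Barcodes under 200 genes or above 20% mitochondrial UMIs had been set aside first. The rule found 1614 members among 20913 kept barcodes, and 1605 of them lay in the day 21 library.

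The cells were liver non-parenchymal cells of female BALB/c mice, measured in 3 droplet libraries. Mice aged 8 weeks were injected orthotopically with PBS (control) or with 4T1 cells, a mouse mammary tumour line, and livers were taken after 4 or 21 days. The labels give an age of 8 weeks for the control and day 4 libraries and 11 weeks for the day 21 library, so age and tumour duration cannot be told apart. No genetic change is named for any group, and neither the number of mice in a library nor the day of the control is stated. Each group is a single library, so no difference could be set against the spread of replicates. Intervals are 95% and cover counting error only, and they describe these libraries.

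Neutrophils are made in the bone marrow from promyelocytes, which fill the primary granules with proteases and myeloperoxidase. They then pass through dividing myelocytes and non-dividing metamyelocytes, which make the secondary granule proteins, and later stages make gelatinase (tertiary) granules and the receptors of the circulating cell. The transcription factor C/EBP epsilon, from Cebpe, is needed for the secondary granule programme. The bone marrow releases immature stages into the blood when demand is high, and tumour-bearing mice are known for such release.

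The 3 secondary granule genes that define the class encode neutrophilic granule protein (Ngp), the cathelicidin antimicrobial peptide (Camp) and lactoferrin (Ltf), and all lie on chromosome 9. In GENCODE M21 on GRCm38, Camp (ENSMUSG00000038357) spans chr9:109847379-109849617 on the minus strand, Ngp (ENSMUSG00000032484) chr9:110419747-110423012 on the plus strand and Ltf (ENSMUSG00000032496) chr9:111019271-111042767 on the plus strand. Mmp8 (ENSMUSG00000005800, neutrophil collagenase), at chr9:7558456-7568485 on the plus strand, is a label marker that the rule did not use. It ran against the other 3 among the members, as given below. The 250 bases before the RefSeq start of each gene (GRCm38.p6) are printed 5′ to 3′ on the gene's own strand, for the 3 genes of the rule because they define the class and for Mmp8 because it ran against them. They cover chr9:110419558-110419807 (plus) for Ngp, chr9:109849457-109849706 (minus) for Camp, chr9:111019042-111019291 (plus) for Ltf and chr9:7558179-7558428 (plus) for Mmp8. Capitals mark matches to the letters TTGCNNAA, one arrangement bound by C/EBP factors, searched on both strands, so that a match on the other strand reads TTNNGCAA.
Ngp: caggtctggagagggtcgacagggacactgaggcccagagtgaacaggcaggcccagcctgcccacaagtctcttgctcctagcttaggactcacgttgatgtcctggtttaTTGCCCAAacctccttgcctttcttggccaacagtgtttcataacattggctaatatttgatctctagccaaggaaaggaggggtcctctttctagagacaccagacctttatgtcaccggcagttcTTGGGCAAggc
Camp: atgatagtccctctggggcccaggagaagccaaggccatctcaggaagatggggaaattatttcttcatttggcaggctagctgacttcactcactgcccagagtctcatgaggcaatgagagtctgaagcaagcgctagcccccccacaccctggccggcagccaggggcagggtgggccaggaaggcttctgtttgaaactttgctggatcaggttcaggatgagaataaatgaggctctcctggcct
Ltf: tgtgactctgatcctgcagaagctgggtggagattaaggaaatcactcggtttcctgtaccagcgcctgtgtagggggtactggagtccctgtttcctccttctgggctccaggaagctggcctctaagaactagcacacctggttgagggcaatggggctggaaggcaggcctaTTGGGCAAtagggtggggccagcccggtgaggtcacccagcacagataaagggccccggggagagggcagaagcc
Mmp8: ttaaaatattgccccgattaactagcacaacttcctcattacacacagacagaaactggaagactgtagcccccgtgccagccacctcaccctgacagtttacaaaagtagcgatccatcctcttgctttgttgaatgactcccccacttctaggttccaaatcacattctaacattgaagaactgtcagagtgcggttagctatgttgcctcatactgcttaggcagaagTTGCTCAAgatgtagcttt
Ngp held 2 matches, 138 and 11 bases before the RefSeq start, Ltf 1 match at 75 bases and Mmp8 1 match at 19 bases. The letters are not in the Camp window. By the GENCODE spans above, Ngp, Camp and Ltf start inside their windows, and the nearer Ngp match lies within the gene. Mmp8 starts past the end of its window. Of all 32851 RefSeq promoter windows of this length, 3142 (9.56%) held at least 1 match. The windows of Lcn2 and Retnlg each held 1 match, that of Fcnb held 2 and that of Chil3 held 0, so genes on both sides of the gradient described below had matches. Windows of Ly6g, S100a8 and S100a9 were searched too. Ly6g had 1 match in its first window and 0 in its second, S100a9 had 1 and S100a8 had 0. A match is a description of letters, and binding was not measured.

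Members made up 2 of 4734 kept barcodes in the control library (0.0422%, exact Clopper-Pearson interval 0.00512 to 0.153%) and 7 of 5509 at day 4 (0.127%, 0.0511 to 0.262%). At day 21 they made up 1605 of 10670 (15.0%, 14.4 to 15.7%). In the ratios that follow, 0.5 was added to each number of members and of kept barcodes. They therefore differ from the plain quotients of these shares. The day 21 share was 110.5 times the day 4 share (interval 53.98 to 226) and 285 times the control share (82.5 to 985). The day 4 share was 2.58 times the control share, with an interval of 0.616 to 10.8 that includes no difference. Among 52, 187 and 5295 barcodes with granulocyte transcripts the members' share was 3.85, 3.74 and 30.3% in the same order of libraries. The intervals were 0.469 to 13.2%, 1.52 to 7.56% and 29.1 to 31.6%. These barcodes met the S100a8 and S100a9 limit or held at least 0.3% Elane, Mpo and Prtn3. The same day 21 library held 2163 mature barcodes (below 0.5% Ngp, Camp and Ltf), 450 dividing barcodes (over 2 UMIs of the cycling genes) and 1030 primary granule-rich barcodes. The control held 49, 0 and 1 of these classes and day 4 held 178, 0 and 2. The cells were a share of what was loaded, so more members and fewer of the other liver cells cannot be told apart. Whether the cells lay in liver tissue or in blood left in its vessels was not measured; the labels name a perfusion.

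At the limit on Ngp, Camp and Ltf, 37 members held 0.5 to 0.6% and 50 barcodes just outside held 0.4 to 0.5%, with median depths of 3925 and 3657.5 UMIs. At the S100a8 and S100a9 limit, 6 members held 2 to 4% and 4 barcodes outside held 1 to 2%. Of the members of day 21, 1395 held no UMI of the 4 cycling genes, 149 held 1 and 61 held 2, and 39 barcodes that met the other limits held 3. At the primary granule limit, 7 members held 0.2 to 0.3% and 3 barcodes outside held 0.3 to 0.4%.

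The library totals were 27191082 (control), 34833820 (day 4) and 51913215 UMIs (day 21), and members held 13553, 55545 and 9358733 UMIs of the kept barcodes. The day 21 members had a median of 5727 UMIs and 1035 genes, with 2.67% mitochondrial UMIs. Mature barcodes of that library had medians of 1760 UMIs and 578 genes, and dividing barcodes a median of 10356.5 UMIs. The cell filters removed 27.0, 39.96 and 13.5% of the control, day 4 and day 21 barcodes. No doublet was removed, as the rule has no such step; Scrublet marked 155 of the day 21 members (9.66%), 8.00% of mature and 14.7% of dividing barcodes, and none of the 9 earlier members. Libraries shared between 13 and 32 barcode sequences, and 0 of those were members in both libraries of a pair.

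**Figure D1:**
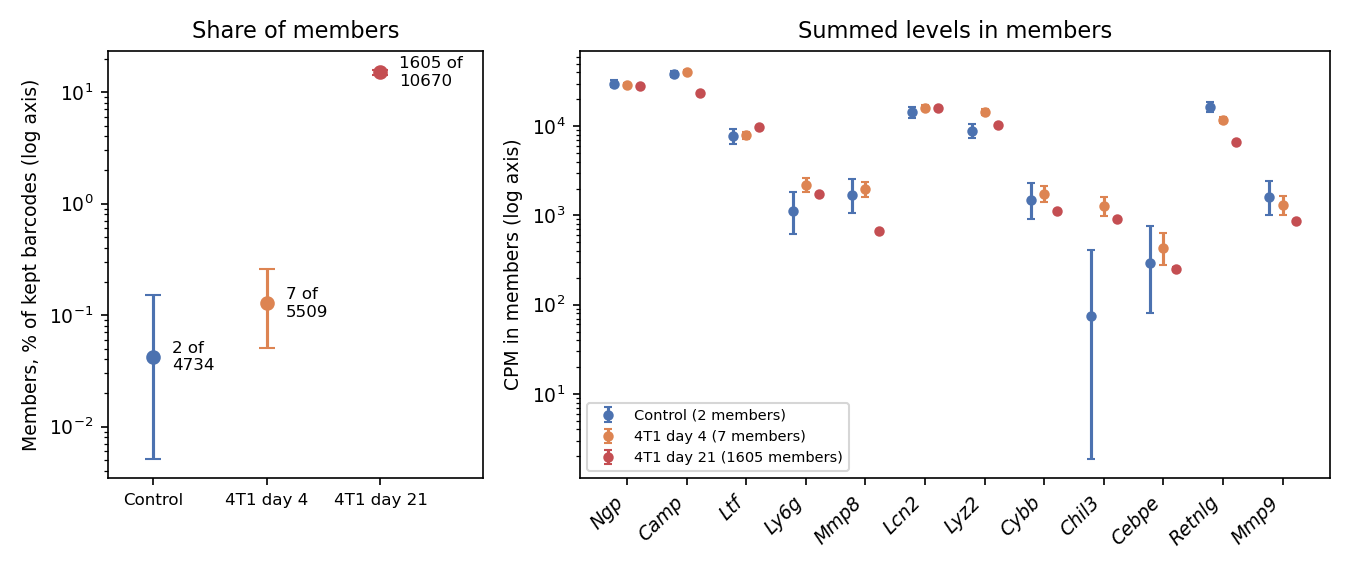
Left, members as a percentage of kept barcodes in each library on a log axis, with exact 95% intervals and the counts beside the points. Right, counts per 1000000 UMIs (CPM) over the summed members of each library on a log axis, with 95% Poisson intervals; the day 21 library held 1605 members against 2 and 7, and its Retnlg and Mmp8 points lie below those of the other libraries.

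The few members of the earlier libraries varied among themselves in the genes of the rule. The 2 control members held 6443 and 7110 UMIs, with 208 and 198 UMIs of Ngp, 176 and 345 of Camp and 66 and 38 of Ltf. The 7 day 4 members held 258, 25, 521, 165, 297, 292 and 60 UMIs of Ngp, 9 to 830 of Camp and 1 to 124 of Ltf, in barcodes of 5123 to 12626 UMIs. Of the day 4 members, 5 held 7.34 to 11.7% Ngp, Camp and Ltf, and the remaining pair 0.859 and 1.14%. The control members held 6.98 and 8.17%, within the day 21 range, which reached 15.2% (median 5.35%). Mmp8, outside the rule, had 17 and 6 UMIs in the control members and 0 to 28 in the day 4 members.

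The 5 label markers were then compared with cells that should lack them, using counts per 1000000 UMIs (CPM) of the summed members. Each UMI stands for a molecule read at its 3′ end, so levels were not divided by gene length. Ngp stood at 29956 CPM in control, 29130 in day 4 and 28080 in day 21 members, so the libraries lay close together. Camp stood at 38442, 40634 and 23445 CPM and Ltf at 7674, 7886 and 9782 CPM in the same order, and day 21 was the lowest for Camp and the highest for Ltf. These 3 genes chose the cells, so their height is no finding. Ly6g, the surface antigen Ly-6G of mouse neutrophils, stood at 1107, 2196 and 1745 CPM. Mmp8 stood at 1697, 1962 and 666 CPM, with day 21 below the counting intervals of both other libraries (1076 to 2546 and 1611 to 2367). Those intervals leave out the spread between cells, and single day 4 members ran from 0 to 28 UMIs of Mmp8.

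UMIs of the granule genes were also seen in day 21 barcodes of other cell types, and their source was not tested. Ngp was seen in 99.9% of day 21 members and in 23.1% of 765 B cell barcodes (median 1634 UMIs), Camp in 98.3 and 21.7%, Ltf in 96.7 and 8.63%, Ly6g in 95.95 and 1.31%, and Mmp8 in 69.6 and 2.22%. At 1000 UMIs per barcode, which left out 54 members and 441 mature barcodes, Ngp was seen in 99.8% of members, 32.1% of mature and 10.7% of B cell barcodes. Ly6g was seen in 77.9, 32.5 and 0.141% and Mmp8 in 44.9, 49.5 and 0.705%. The rule fixed the difference in Ngp between members and mature barcodes. Of the 2 label markers it did not use, Ly6g was the more frequent in members, and Mmp8 was about as frequent in both. Mmp8, although named in the label, therefore did not mark the members over mature neutrophils, while it did over dividing barcodes, where it was seen in 5.58%.

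Markers of the other liver cells were at low levels in the members. Of their UMIs at day 21, hepatocyte markers made up 234 CPM (689 in mature barcodes), sinusoidal endothelial markers 228 (672), Kupffer markers 210 (437), monocyte markers 168 (351), B cell markers 16.7 (57.2) and haemoglobin genes 1045 (5080). All genes of these 6 lists were detected in members. Counted per barcode, the hepatocyte list gave 1.37 UMIs in members and 1.47 in mature barcodes, and the endothelial list 1.33 and 1.43. The Kupffer list gave 1.22 and 0.93 and the monocyte list 0.98 and 0.75, so these sums were higher in members per barcode and lower in CPM. The monocyte sum rested on 1 gene, Ly6c2, with 954 of the 1570 UMIs in members and a log2 ratio of 2.31 per barcode. Ccr2 (-0.69) and Csf1r (-0.90) were lower per barcode, and 5 of the 6 monocyte genes were at least 2-fold lower in CPM. Of the 4 eosinophil genes, 3 were at 0 in members. These levels moved with the contrast to mature cells, and their part in it was not tested. Leaving out barcodes with 3 or more UMIs of a hepatocyte, endothelial, Kupffer, B cell or erythroid list, an alternative chosen after seeing the data, lowered the day 21 share to 12.8%.

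S100a9 and S100a8, the calprotectin subunits, took 22.2 and 21.5% of all UMIs in the day 21 members, followed by Ngp (2.81%), Camp (2.34%), the actin-binding thymosin Tmsb4x (2.29%) and Lcn2 (1.60%). S100a8 and S100a9 together made up 43.7% of UMIs in members, 28.6% in mature and 38.3% in dividing barcodes. Ribosomal protein genes made up 3.15% in members, 4.01% in mature, 5.07% in dividing and 20.4% in primary granule-rich barcodes. These shares set the scale of every CPM ratio. The median log2 ratio over all genes compared was -0.71 against mature and -0.23 against dividing barcodes, and each ratio below should be read against that median. Members also held 2.73 times as many UMIs per barcode as mature cells, so counting per barcode adds 1.45 to each log2 ratio, and counting per barcode against dividing cells changes each by -0.83.

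Against mature neutrophils of the same library, members had higher levels of most secondary granule transcripts outside the rule and of Cebpe, and lower levels of cytokine, interferon-stimulated and immediate early transcripts. Over 7548 genes with at least 50 UMIs in both classes together, 213 (2.82%) lay 2-fold or more above mature barcodes and 2663 (35.3%) 2-fold or more below. Centred on the median of all genes the numbers were 718 and 740, and per barcode they were 2702 and 150, so the balance of the 2 directions follows the scaling. The counts for each list below are to be read against these percentages. The classes were cut from these cells' own counts, so ratios are descriptions and carry no test.

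Genes of the secondary granule list other than the rule's were mostly higher in members. Of 14 compared, 10 were at least 2-fold higher and 1 lower, with a median log2 ratio of 1.68. The lower one was Cyp4f18 (66.4 against 325 CPM), a cytochrome P450 gene that the list includes. Lcn2, the iron-siderophore binder lipocalin-2, stood at 15997 CPM in members and 3815 in mature barcodes (log2 2.07). Lyz2, lysozyme, stood at 10253 against 2885 CPM (1.83). Chil3, a chitinase-like secreted protein, stood at 919 against 40.3 CPM (4.51, interval 4.30 to 4.73). Olfm4, which marks a subset of neutrophils, stood at 491 against 97.8 CPM (2.33) and Cd177, a surface and granule protein, at 613 against 196 CPM (1.64). Hp, haptoglobin, stood at 2424 and 2442 CPM, a log2 ratio of -0.01. Mmp8 had a log2 ratio of -0.47, which became 0.04 with the rule's genes removed from the total, 0.24 centred and 0.98 per barcode, so its direction rests on the scale.

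Genes listed as tertiary granule or late lay on both sides. Of 12 tertiary granule and late genes, 1 was at least 2-fold higher and 3 lower, with a median of 0.05 that crossed 0 under several settings. Fcnb, the lectin ficolin-B, stood at 98.0 CPM in members and 2.60 in mature barcodes (log2 5.18, interval 4.42 to 6.19), the highest ratio among the genes outside the rule that passed the level filters. Unlike Mmp9 and Retnlg, Fcnb was higher in dividing (345 CPM) and primary granule-rich barcodes (155 CPM) than in members. Mmp9, gelatinase B, stood at 856 and 771 CPM (0.15). Retnlg, resistin-like gamma, stood at 6646 against 16345 CPM (-1.30), which turned to 0.15 per barcode.

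The genes of the superoxide-producing NADPH oxidase had a median above that of all genes. Of 6 genes, 2 were at least 2-fold higher and 0 lower, with a median log2 ratio of 0.65. Cybb, the catalytic subunit gp91phox, stood at 1135 against 166 CPM (2.77), and Ncf1, the organiser p47phox, at 449 against 122 CPM (1.88). Rac2 stood at 1468 against 1352 CPM (0.12). Lta4h, which makes leukotriene B4, stood at 135 against 14.1 CPM (3.24).

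Among transcription factors of granulopoiesis, Cebpe stood apart, at 251 CPM in members and 8.89 in mature barcodes (log2 4.80, interval 4.37 to 5.30). It was seen in 47.4% of member and 1.66% of mature barcodes. It was the only 1 of 20 factors at least 2-fold higher, and 11 were lower, with a list median of -1.19 that turned to 0.26 per barcode. Cebpb, used in emergency granulopoiesis, stood at 481 against 1817 CPM (-1.92) and Junb at 238 against 1423 CPM (-2.58). Serpinb1a, an inhibitor of the granule serine proteases, stood at 689 against 69.4 CPM (3.31). The other highest genes were Tmem216, a ciliary protein (47.2 against 3.90 CPM), Tnnt1, slow skeletal troponin T (29.9 against 2.82), Lmo1, a LIM-only regulator (39.7 against 3.90), and Inhba, the activin beta A subunit (65.2 against 6.50). Tmem216 overlaps Cpsf7 on the other strand, and Lmo1 and Inhba each overlap an antisense gene. Cebpb, Junb, Ncf1 and Il1b are among other named genes that overlap a gene on the other strand. Whether strand entered the counting is not stated, so this uncertainty holds for all of them.

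Cytokine genes had the lowest median of the functional lists against mature cells. Of 11 inflammatory cytokines and chemokines, 10 were at least 2-fold lower and 1 higher, with a median log2 ratio of -2.97. Il1b, interleukin-1 beta, stood at 131 CPM in members and 3303 in mature barcodes (-4.66, interval -4.74 to -4.57), and was seen in 21.6 and 88.3% of them. Cxcl2, a CXCR2 ligand, stood at 16.7 against 383 CPM (-4.52). The 1 higher gene was Tnf, at 10.7 against 3.47 CPM. Both Il1b and Cxcl2 were lower per barcode too, by log2 ratios of -3.20 and -3.07.

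The other genes with the lowest ratios were Ccrl2, an atypical chemokine receptor (3.21 against 74.1 CPM), Igfbp6, an IGF-binding protein (14.3 against 265), Gbp2, a guanylate-binding protein (3.74 against 63.9), Jaml, an adhesion molecule (13.2 against 214), Fgl2, a fibrinogen-like protein (13.5 against 214), and Prr5l, an mTORC2 partner (5.66 against 86.9). Jaml, Fgl2 and Prr5l overlap other genes on the opposite strand.

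Mature neutrophil genes were mostly lower in members on the CPM scale. Of 25 mature neutrophil genes, 0 were at least 2-fold higher and 15 lower, with a median of -1.28 that became 0.17 per barcode. Csf3r, the G-CSF receptor, stood at 134 against 876 CPM (-2.71, and -1.26 per barcode), and Cxcr2, the receptor for neutrophil-attracting chemokines, at 206 against 664 CPM (-1.69, and -0.24 per barcode). Of 20 cytokine and chemokine receptors, 0 were at least 2-fold higher and 14 lower. Their median of -1.14 became 0.31 per barcode, and receptors such as Il1r2 (0.53) and Ccr1 (0.50) were higher per barcode. Cd101, a late maturation marker, stood at 1.60 against 20.2 CPM (-3.61). In the same list of 20 maturation surface proteins Ly6g (1.44), Cd63 (1.46), Cd177 (1.64) and Ceacam1 (2.28) were the 4 at least 2-fold higher, and 9 were lower. Cxcr4, the marrow retention receptor, stood at 37.3 against 81.3 CPM (-1.12), a direction that turns per barcode.

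Interferon-stimulated, antigen presentation and stress genes lay on the low side without a listed gene at least 2-fold higher, and their medians stayed below 0 per barcode. Of 18 type I interferon-stimulated genes 16 were lower (median -1.65), among them Isg15, a ubiquitin-like protein, at 29.2 against 151 CPM and Rtp4 at 27.8 against 230 CPM. All 9 MHC class I and II genes compared were lower (median -1.66), for example Cd74, the invariant chain, at 49.2 against 179 CPM. Per barcode H2-D1 (0.38) and B2m (0.26) were higher, H2-K1 (-0.04) was near level, and H2-Q7 (-0.68) and Cd74 (-0.41) were lower. The hepatocyte, endothelial and B cell marker lists had medians of -1.63, -1.68 and -1.93. The part of other cells' RNA in the MHC contrast to mature cells was not tested. Of 16 immediate early and stress genes 15 were lower (median -1.88), with Dusp1, a MAP kinase phosphatase, at 136 against 1317 CPM and Fos at 88.2 against 658 CPM. Of 16 genes tied to immunosuppressive myeloid cells 11 were lower (median -1.66). Arg2, arginase 2, stood at 109 against 385 CPM and Prok2, the prokineticin Bv8, at 379 against 1084 CPM.

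Respiratory chain and glycolysis lists lay near 0 and so above the median of all genes. Of 18 nuclear respiratory chain genes 0 were 2-fold apart from mature cells in either direction, with a median of 0.10. The 16 glycolysis genes had a median of -0.09, with 0 higher and 3 lower, among them the glucose transporter Slc2a1 at 29.4 against 101 CPM. Ribosome biogenesis genes lay below that median, with 8 of 10 at least 2-fold lower and 0 higher. Their median of -1.34 became 0.11 per barcode. Of the G2/M genes outside the rule only 5 of 18 reached 50 UMIs, and their median of 1.25 turned to -0.30 when members with any UMI of the 4 cycling genes were left out.

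**Figure D2:**
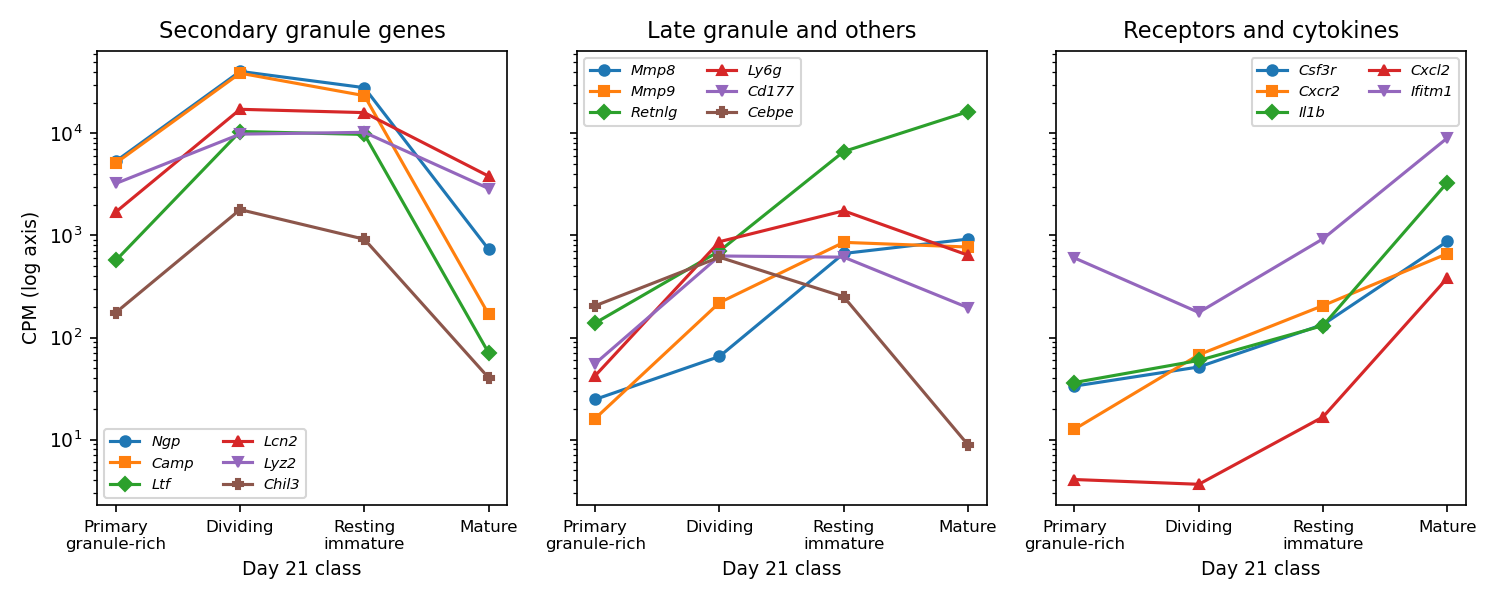
Levels in CPM (log axis) of 17 genes over the summed barcodes of 4 day 21 classes; lines join the classes for reading only. Ngp, Camp and Ltf, which the rule used, and Lcn2, Lyz2 and Chil3 stand higher in dividing and resting immature barcodes than in mature ones, Retnlg, Il1b and Csf3r are highest in mature ones, and Ly6g is highest in the resting immature ones.

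Set beside the dividing barcodes of the same library, members shared the level of most secondary granule genes and differed in cell cycle, chromatin and late genes. Of 7300 genes compared, 400 (5.48%) were 2-fold or more higher in members and 1307 (17.9%) lower by that much, or 651 and 943 centred on the median of all genes. Per barcode 70 were higher and 3914 lower. The contrast includes the 4 cycling genes of the rule, so the low cycle genes follow from the rule and are given as description. All 18 G2/M genes outside the rule (median -5.42) and all 17 S phase genes (median -3.14) were at least 2-fold lower.

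The lowest ratios against dividing barcodes were of Sgo1 (0.214 against 36.5 CPM), Cdca2 (0.214 against 33.2), Nusap1 (1.71 against 215), the linker histone Hist1h1b (1.60 against 184), Ndc80 (0.427 against 51.9), Ccnf (0.214 against 28.5), Kif4 (0.214 against 26.6) and Plk1 (0.748 against 78.9), all genes of mitosis or chromosome packing. Rrm2, the ribonucleotide reductase subunit of S phase, stood at 6.95 against 217 CPM. H2afz, a histone variant, stood at 609 against 2789 CPM (log2 -2.20) and Hmgb2, a chromatin protein, at 1530 against 4813 CPM (-1.65).

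The secondary granule list had a median of 0.13 against dividing barcodes, with 4 of 14 at least 2-fold higher and 0 lower. Ngp stood at 28080 against 40550 CPM, Camp at 23445 against 38972 and Ltf at 9782 against 10445. Lcn2 (-0.11), Lyz2 (0.06), Cd177 (-0.04) and Hp (0.01) differed little between the classes on the CPM scale. The 4 higher genes were Mmp8 (666 against 65.2 CPM, log2 3.35, interval 3.19 to 3.52), Cyp4f18 (66.4 against 14.2), Ceacam10 (267 against 81.9) and Olfm4 (491 against 211). Cebpe itself stood at 251 against 613 CPM (-1.29), Chil3 at 919 against 1793 (-0.96) and Fcnb at 98.0 against 345 (-1.82).

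Late genes were higher in members than in dividing barcodes. Of 24 mature neutrophil genes 16 were at least 2-fold higher and 0 lower (median 1.11), and of 12 tertiary granule and late genes 5 were higher and 1 lower (median 0.95). Retnlg stood at 6646 against 704 CPM (3.24), Mmp9 at 856 against 220 CPM (1.96), and Cxcr2 at 206 against 67.8 CPM (1.60). The highest ratios were of Ankrd33b (28.3 against 2.57 CPM), Mmp8, Retnlg, Ggt1, a gamma-glutamyltransferase (76.7 against 10.5), Arg2 (109 against 19.1), Prok2 (379 against 67.8), Ifitm1, an interferon-induced membrane protein (928 against 176), and Fpr1, the formyl peptide receptor (129 against 24.7). Arg2 and Prok2 overlap genes on the other strand. Of 8 MHC genes 4 were at least 2-fold higher, for example Cd74 at 49.2 against 19.9 CPM. Markers of other cells lay on both sides of dividing barcodes. Hepatocyte (3 of 6), haemoglobin (2 of 4) and Kupffer genes (1 of 5) were at least 2-fold higher. By contrast 4 of 6 monocyte genes were lower, and 0 of 6 endothelial genes were 2-fold apart. The part of other cells' RNA in the MHC values was not tested.

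Among growth genes, ribosome biogenesis genes were mostly lower in members than in dividing barcodes. Of 10 ribosome biogenesis genes 6 were at least 2-fold lower (median -1.12), with nucleophosmin Npm1 at 49.0 against 130 CPM. Of 18 respiratory chain genes 4 were at least 2-fold lower and 0 higher (median -0.66), a share near the 17.9% of all genes that were lower. Of the primary granule genes Prtn3, proteinase 3, stood at 62.1 against 437 CPM and Ms4a3 at 26.9 against 137 CPM; Prtn3 is a gene of the rule.

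Primary granule-rich barcodes were chosen by Elane, Mpo and Prtn3 alone, so the members' other limits also set the 2 classes apart. At day 21 their medians were 0.151% S100a8 and S100a9, 0.0179% Ngp, Camp and Ltf, and 10 UMIs of the cycling genes. Members had medians of 45.5%, 5.35% and 0. The contrast thus follows in part from the rule and is given as description. Against the primary granule-rich barcodes, 922 of 9839 genes (9.37%) were at least 2-fold higher in members and 6006 (61.0%) lower, about a median of -1.53. All 14 genes compared of the secondary granule list were at least 2-fold higher (median 3.07). Ly6g stood at 1745 against 42.2 CPM, Mmp9 at 856 against 16.1 CPM and Retnlg at 6646 against 139 CPM. The cysteine protease inhibitors Stfa2 and Stfa3 stood at 860 against 15.7 and 876 against 17.1 CPM; they belong to a cluster of near-identical copies, as Chil3 does with its neighbour, and counting can split reads among such copies. Ctsg, cathepsin G of the primary granules, stood at 7.27 against 3404 CPM.

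**Figure D3:**
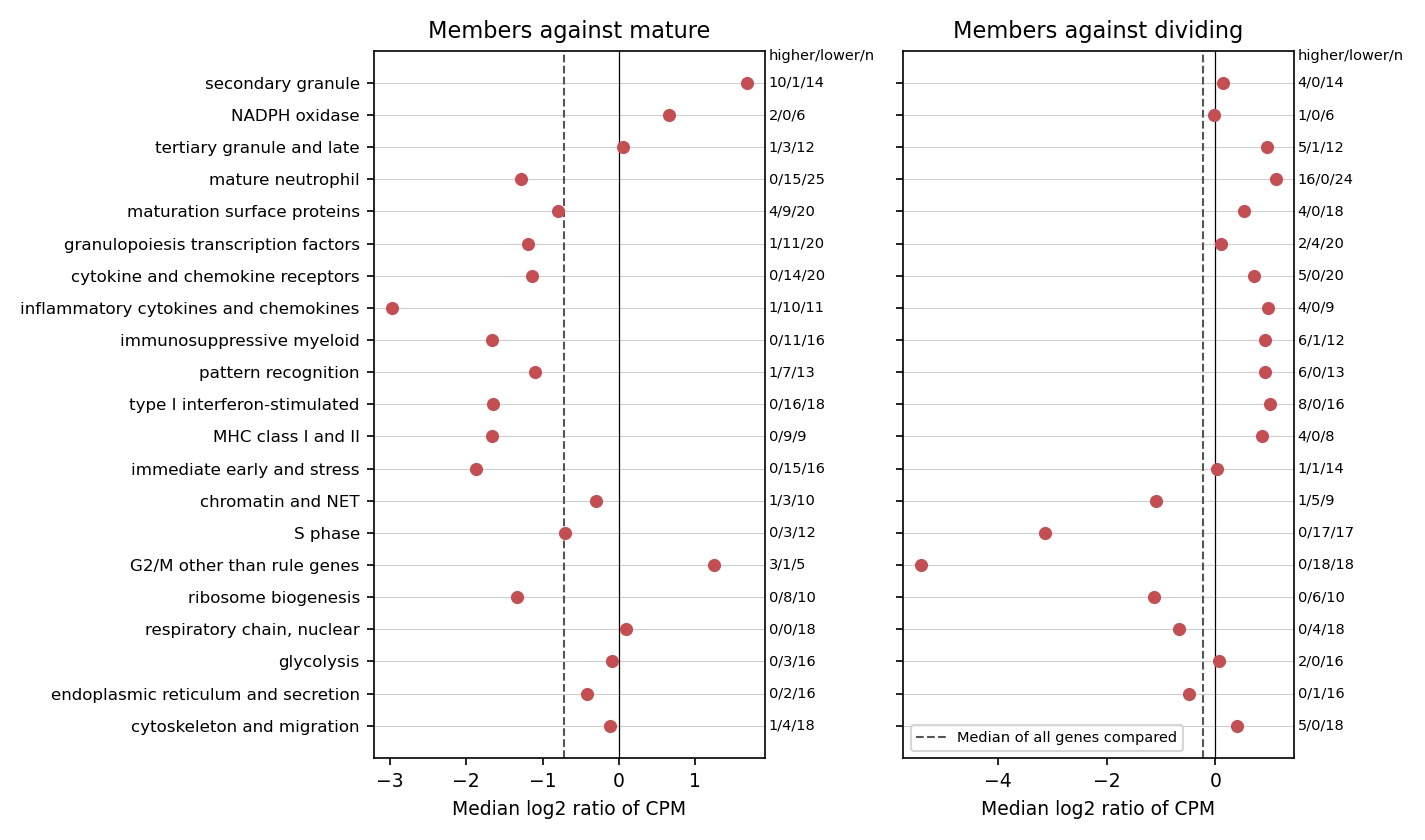
Median log2 ratio of CPM in day 21 members over mature (left) and dividing barcodes (right) for 21 gene lists, with the numbers of genes higher by 2-fold or more, lower by 2-fold or more and compared at the right of each panel. The dashed line is the median of all genes compared (-0.71 and -0.23), and the secondary granule list lies above it on the left while the S phase and G2/M lists lie far below it on the right.

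Members were not alike. Their Ngp, Camp and Ltf share ran from the limit of 0.5% to 15.2% of UMIs, and other genes ran with it. The 1605 day 21 members were divided into 5 ranges of that share, 0.5 to 1%, 1 to 2%, 2 to 5%, 5 to 10% and 10% or more, with 152, 188, 411, 667 and 187 members. The ranges are cuts of a gradient and not types. Median depth was 4099, 4364, 5195, 6737 and 7501 UMIs from the lowest to the highest range, and the share of cells with a UMI of a cycling gene was 3.29, 3.19, 6.81, 15.0 and 38.0%. Doublet calls were 11.8, 13.3, 13.6, 8.25 and 0.535% in the same order, and hepatocyte markers stood at 220, 1520, 117, 106 and 63.1 CPM, highest in the second range. Haemoglobin also varied, with Hbb-bs at 59.9 to 1104 CPM and highest in the middle range. The part of depth, doublets and these markers in what follows was not tested.

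Some genes outside the rule were higher in the upper ranges, among them Cebpe, Fcnb and Chil3. Cebpe stood at 34.97, 46.3, 93.3, 301 and 572 CPM from the lowest to the highest range. Fcnb stood at 1.67, 3.65, 7.81, 91.5 and 376 CPM and Chil3 at 89.9, 134, 362, 1097 and 2117 CPM. All 3 thus had their highest value in the highest range and their lowest in the lowest.

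Lyz2 stood at 3958, 4953, 6011, 12306 and 16572 CPM and Lcn2 at 8593, 9745, 12671, 17993 and 22092 CPM. Cybb stood at 330, 513, 922, 1353 and 1509 CPM and Lta4h at 13.3, 24.4, 82.7, 171 and 220 CPM. These 4 genes therefore ran with the granule genes of the rule, while other granule genes outside it, such as Mmp8 and Mmp9, did not.

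Late genes ran the other way. Retnlg stood at 21645, 18293, 9672, 2809 and 455 CPM, lower at every step. Prok2 stood at 1197, 969, 539, 181 and 38.5 CPM and Ifitm1 at 3563, 2447, 1297, 363 and 70.0 CPM. Cxcr2 stood at 401, 352, 274, 157 and 75.4 CPM and Csf3r at 353, 257, 158, 95.5 and 47.7 CPM, so both receptors were lowest where granule transcripts were highest. Cebpb stood at 1099, 987, 658, 310 and 168 CPM, the reverse order of Cebpe. Il1b stood at 325, 258, 129, 107 and 45.4 CPM and Arg2 at 271, 218, 142, 78.0 and 15.4 CPM.

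The 2 label markers outside the rule did not rise with the granule share. Mmp8 stood at 1287, 1466, 1100, 401 and 56.2 CPM, so the highest range held the least of it. Ly6g stood at 1440, 1620, 1743, 1888 and 1481 CPM and had no steady direction. Mmp9, which is no label marker, stood at 1180, 1161, 1072, 828 and 252 CPM. S100a8 (199964 to 219272 CPM) and S100a9 (202537 to 230835 CPM) were near level. Cd177 stood at 480, 593, 584, 640 and 644 CPM.

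**Figure D4:**
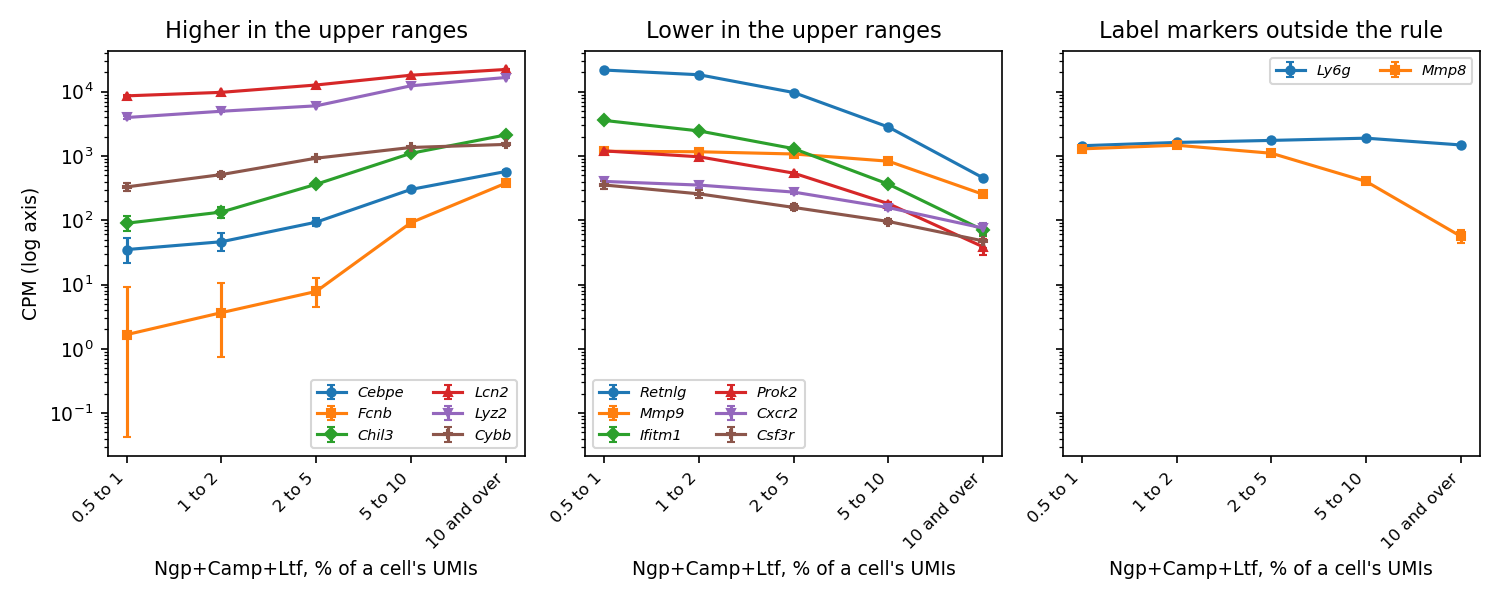
Levels in CPM (log axis, 95% Poisson intervals) across 5 ranges of the Ngp, Camp and Ltf share of day 21 members. Cebpe, Fcnb, Chil3, Lcn2, Lyz2 and Cybb are highest in the top range, Retnlg, Mmp9, Ifitm1, Prok2, Cxcr2 and Csf3r are lowest there, and Mmp8 is lowest there too while Ly6g stays between 1440 and 1888.

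Of 2217 genes compared between the highest and the lowest range, 182 (8.21%) were higher by 2-fold or more and 480 (21.7%) lower by as much, with a median log2 ratio of -0.21. Of 22 mature neutrophil genes 18 were lower and 0 higher (median -1.98), and of 11 tertiary granule and late genes 6 were lower and 1 higher (median -1.002). Of 13 genes of the secondary granule list outside the rule 4 were higher and 2 lower (median 0.63). Of 18 respiratory chain genes 8 were higher and 0 lower (median 0.69). Of 8 immediate early genes 7 were lower (median -1.44).

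Across 1551 members thinned to 1000 UMIs each, Spearman's correlation with the share was described without a test, since the points share 1 library and the thinned totals. The highest values were of Lyz2 (0.68), Lcn2 (0.62), Chil3 (0.49), the phospholipid-binding annexin Anxa1 (0.44), Cybb (0.37), H2afz (0.28), Serpinb1a (0.27) and Arhgdib (0.26). The lowest were of Retnlg (-0.75), Wfdc17 (-0.55), S100a6 (-0.55), the nuclear RNA Malat1 (-0.54), ferritin heavy chain Fth1 (-0.52), Mmp8 (-0.50), Ifitm1 (-0.46) and the proteoglycan serglycin Srgn (-0.42). Between pairs of markers, Ngp had a Spearman coefficient of 0.82 with Camp and 0.69 with Ltf, -0.43 with Mmp8 and 0.02 with Ly6g. Mmp8 had a coefficient of 0.50 with Retnlg. The share itself had a coefficient of 0.51 with UMIs per barcode over 1605 members, so depth ran with it.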

How the data were processed

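Droplet 3′ libraries of liver non-parenchymal cells gave deposited UMI counts for 31053 genes, made by the authors, per the file headers, in Cell Ranger 3.1.0, on mm10 per the submitters' processing notes. Class members and gene lists were chosen with earlier results of these data known. Cells were classed by the rule given above. Counts were summed per class and expressed as CPM. Log2 ratios added 0.5 counts, with exact conditional binomial intervals, over genes with 50 or more UMIs in both classes together. A gene was called at 2-fold, and genes of the rule stayed out of lists and counts. Shares have Clopper-Pearson intervals, and the floor for gene levels was 3 counts. Thinning to 1000 UMIs left out shallower barcodes. Doublets were scored with Scrublet in Scanpy 1.11.5 at 0.8% per 1000 barcodes. Named genes were the 5 markers, the 8 highest and 8 lowest ratios and correlations among genes passing level filters (100 UMIs, 10% of the higher class or 20% of members for correlations, 0.25 of the level in the rest barcodes), and members of each list. The ratios, intervals, class rule and thinning were checked on simulated data. Scripts ran on SciPy 1.17.1, pandas 2.3.3, NumPy 2.4.6, matplotlib 3.10.9 and Python 3.11.15. GENCODE M21 holds 30934 of the 31053 gene IDs.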

Additional observations from a re-analysis of the deposited data

Results flagged for a closer look

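At day 21, 26 barcodes met the limits of the class but failed a cell filter, 14 of them for their mitochondrial share, and they stayed out of every value given. The control and day 4 libraries held 0 such barcodes. They were listed because they lie outside the kept cells and above the control.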

How the results depend on the processing

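No paired analysis was possible because each group has 1 library. The day 21 share of 15.0% became 21.4% with a mitochondrial limit of 10%, 15.9% with 500 genes, 16.7% and 13.6% with the granule limit at 0.25% and 1%, 13.1% with no cycling UMI, 20.1% on barcodes thinned to 1000 UMIs and 12.8% without barcodes that held other cells' markers. Its ratio to day 4 lay between 92.1 and 129 over the alternatives.

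Against mature cells, 213 genes higher became 501 without the selecting genes in the total, 126 with 200 or more UMIs, 2702 per barcode and 718 centred. The 2663 lower became 1070 on thinned sums, 1119 without those genes, 4774 with 10 or more UMIs, 1120 with 200 or more, 150 per barcode and 740 centred. Against dividing cells, 400 higher became 224 thinned, 767 with 10 or more UMIs, 203 with 200 or more, 70 per barcode and 651 centred, and 1307 lower became 315, 2241 and 514 under the first 3 of these and 3914 per barcode. The G2/M list against mature cells turned from 1.25 to -0.30 with no cycling UMI, -0.63 thinned and -0.24 with 200 or more UMIs. Per barcode, 12 of 28 list medians kept their sign against mature cells and 16 of 28 against dividing cells. Among the lists whose main median against mature cells was 2-fold or more in size, 7 turned. These were mature neutrophil 0.17, transcription factors 0.26, cytokine receptors 0.31, pattern recognition 0.36, ribosome biogenesis 0.11, cell death 0.31 and iron 0.13. The primary granule list against dividing cells turned to 0.43 on thinned sums. Counting per barcode, centring and leaving out other cells' markers were chosen after seeing the data. The sign of single genes was followed for Ly6g, Mmp8 and the genes with the highest and lowest ratios only, 18 against mature and 17 against dividing cells. Over the 14 other alternatives they kept it in 250 of 252 and 238 of 238 cases, the exceptions being Mmp8. Beyond the scaling settings, whose construction moves every gene, the cause of these changes was not tested. Depth limits the control and day 4 members most, at 13553 and 55545 UMIs.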

Other observations

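Cd3d (ENSMUSG00000032094, chr9:44981786-44987339 on the plus strand), a subunit of the T cell receptor complex, had UMIs in the members. It was named after its values were seen. At day 21 it gave 1324 UMIs, or 141 CPM, and was seen in 752 of 1605 members (46.9%), and in 47.6% of the 1450 that Scrublet did not mark. Both control members and 5 of the 7 day 4 members held it. In mature barcodes it stood at 52.5 CPM (8.83% of barcodes) and in dividing barcodes at 86.4 CPM. At 1000 UMIs per barcode it was seen in 12.4% of members, 10.7% of dividing, 3.77% of mature, 0.987% of B cell and 0.871% of endothelial barcodes. The other T cell receptor genes were near 0 in members, with 12 UMIs of Cd3e, 32 of Cd3g and 10 of Trac. Of the 752 members with Cd3d, 14 held any UMI of these 3 genes. In 537 other day 21 barcodes with 2 or more UMIs of Cd3e, Cd3g and Trac together, Cd3d stood at 653, Cd3e at 573 and Cd3g at 1098 CPM. Across the 5 ranges of the granule share Cd3d stood at 103, 128, 139, 165 and 90.8 CPM, with no steady direction. Where along Cd3d these reads lie was not analysed here.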
